A study of Rattus norvegicus with 4 samples.

Results

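The annexins are a family of genes whose protein products bind membranes that carry acidic phospholipids when calcium is present. The 10 annexin genes described here, Anxa1, Anxa2, Anxa3, Anxa4, Anxa5, Anxa6, Anxa7, Anxa8, Anxa11 and Anxa13, were taken by name from the 25810 genes of the count files. All 10 were found, 9 had at least 1 read, and 8 could be compared between the clones. The RNA came from 2 clones of PC12, a line derived from a rat pheochromocytoma, a tumour of the catecholamine-secreting chromaffin cells of the adrenal gland. wtPC12, labelled as wild type cells with low levels of the transcriptional repressor REST, and hrPC12, labelled as cells with high REST, were each sequenced in 2 libraries. No treatment is given for either clone. Each REST level is represented by 1 clone, and the labels do not say whether the 2 libraries of a clone came from separate cultures, so the p values measure only the spread between these libraries. What is due to REST and what to any other difference between the clones cannot be told apart.

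Each annexin is built from a conserved calcium- and phospholipid-binding core and an N-terminal tail that differs from member to member. The tails of some annexins bind small calcium-binding proteins of the S100 family. The best known pairs are Anxa2 with S100a10, Anxa1 with S100a11 and Anxa11 with S100a6. Anxa7 and Anxa11 also pair with Pdcd6, a calcium-binding protein of the ESCRT system. Annexins are known for roles in exocytosis, in which chromaffin cells have been a classical object of study, in the resealing of wounded plasma membranes and in the control of inflammation.

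Reads on genes numbered from 20975027 to 27246502 per library. Values are given as normalized counts, that is, reads divided by the TMM-scaled size of the library and multiplied by the mean of these sizes, for each library or as a clone mean with its SD over 2 libraries. log2 FC is the fitted log2 ratio of hrPC12 to wtPC12, and the lengths of genes were not taken into account, so levels are compared between clones and not between genes. Rest itself had 43.0 and 132 normalized counts in the wtPC12 libraries and 964 and 915 in those of hrPC12 (log2 FC 3.42, adjusted p = 0.0115). Of 8 tested chromaffin cell markers, 6 were lower in hrPC12 past the thresholds given below, among them Th, Dbh and Chgb, while Ddc, an enzyme of catecholamine synthesis, had 22518 ± 2372 normalized counts in wtPC12 and 27138 ± 1212 in hrPC12 (SD, n = 2 per clone).

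To show where transcription of these genes starts, the promoters of 5 annexins are printed here, 3 with the largest differences between the clones (Anxa1, Anxa3 and Anxa5), the one with the most reads (Anxa2), and one in which no change was detected (Anxa7). The sequences are from RefSeq, assembly GRCr8, which is not the build on which the reads were counted. Each runs 5′ to 3′ on the strand of the gene, from 250 bases before to 50 bases after the annotated start. The windows lie at chr1:227303683-227303982, minus strand for Anxa1, chr8:78986002-78986301, plus strand for Anxa2, chr14:13085548-13085847, minus strand for Anxa3, chr2:121272647-121272946, minus strand for Anxa5 and chr15:3870790-3871089, plus strand for Anxa7. Capitals mark matches, on either strand, to any of the 8 motifs named in the next paragraph.
Anxa1: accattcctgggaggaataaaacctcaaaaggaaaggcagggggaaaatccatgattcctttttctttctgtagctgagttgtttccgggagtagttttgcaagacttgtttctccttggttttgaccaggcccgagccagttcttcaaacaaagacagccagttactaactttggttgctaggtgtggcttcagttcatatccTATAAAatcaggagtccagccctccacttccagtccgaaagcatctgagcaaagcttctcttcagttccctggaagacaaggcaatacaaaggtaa
Anxa2: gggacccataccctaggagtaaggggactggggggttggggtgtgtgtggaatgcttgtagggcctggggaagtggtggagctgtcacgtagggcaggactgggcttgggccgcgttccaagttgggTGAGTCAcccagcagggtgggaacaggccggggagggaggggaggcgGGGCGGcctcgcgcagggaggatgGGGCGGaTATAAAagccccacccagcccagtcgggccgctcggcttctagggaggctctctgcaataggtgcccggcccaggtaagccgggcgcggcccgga
Anxa3: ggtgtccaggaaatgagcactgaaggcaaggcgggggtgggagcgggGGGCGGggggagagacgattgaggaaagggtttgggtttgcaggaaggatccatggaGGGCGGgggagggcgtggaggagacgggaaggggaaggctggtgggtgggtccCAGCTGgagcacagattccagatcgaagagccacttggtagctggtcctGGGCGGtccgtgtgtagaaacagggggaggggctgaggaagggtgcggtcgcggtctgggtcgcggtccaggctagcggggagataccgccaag
Anxa5: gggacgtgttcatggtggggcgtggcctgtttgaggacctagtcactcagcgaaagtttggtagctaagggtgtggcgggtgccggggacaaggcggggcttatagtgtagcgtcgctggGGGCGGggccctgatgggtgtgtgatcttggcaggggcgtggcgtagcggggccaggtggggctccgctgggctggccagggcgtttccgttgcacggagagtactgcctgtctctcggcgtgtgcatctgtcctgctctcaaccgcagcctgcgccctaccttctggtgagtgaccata
Anxa7: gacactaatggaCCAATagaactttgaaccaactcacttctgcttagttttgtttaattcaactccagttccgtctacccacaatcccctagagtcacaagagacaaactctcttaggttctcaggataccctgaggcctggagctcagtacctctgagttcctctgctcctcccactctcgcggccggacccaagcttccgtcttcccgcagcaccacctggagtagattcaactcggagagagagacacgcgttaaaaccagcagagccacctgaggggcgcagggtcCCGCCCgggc

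The table of promoters held an entry for 8 of the 10 genes, all but Anxa6 and Anxa13. The motifs searched were the TATA box (TATAAA), the CCAAT box, the GC box (GGGCGG), the site of AP-1 (TGANTCA), an E-box bound by Myod1 (CAGCTG), the Smad box (CAGACA), and the left part (TTCAGCACC) and right part (GGACAGC) of RE-1, the site bound by REST. These motifs do not overlap each other in the 8 windows. TATAAA was found in Anxa1, 46 bases before the start, and in Anxa2, 45 bases before it, and in none of the other 6. Of all 33469 promoters in the table, 14.2% hold it. The GC content of these windows was 45.0% in Anxa1 and between 54.3% and 68.0% in the other 7, where the median of all promoters was 51.7%. GGGCGG, present in 33.1% of all promoters, was found in Anxa2, Anxa3, Anxa4, Anxa5, Anxa7 and Anxa11, and 4 times in Anxa11. TGANTCA (7.33% of all promoters) was found only in Anxa2 among the 8, 123 bases before the start. CAGCTG (15.1%) was found in Anxa3 and Anxa4. CCAAT (37.5%) was found in Anxa4 and Anxa7, and CAGACA (21.1%) in Anxa11. TTCAGCACC (0.356%) was in none of the 8 windows, and GGACAGC (6.59%) was in that of Anxa4. The window of Anxa8 held no match to any of the 8 motifs. The matches describe the letters in these windows and say nothing of binding.

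Annexin genes were higher in hrPC12 or showed no detected change, and none of the 8 tested was lower past a threshold. Of the 8 tested members, 5 had an adjusted p under 0.05 and a higher level in hrPC12 (Anxa1, Anxa2, Anxa4, Anxa5 and Anxa6), where 16.1% of all tested genes did so. Past both thresholds of the study, a log2 FC over 2 at an adjusted p under 0.01, 2 members were higher (Anxa1 and Anxa5), against 4.84% of all tested genes. 0 members were lower by either rule with edgeR or DESeq2, where 16.3% of all tested genes were lower with an adjusted p under 0.05 and 5.46% past both thresholds, and 0 members were lower with an unadjusted p under 0.05. In 5 of the 8 members both hrPC12 libraries lay above both wtPC12 libraries, as in 37.9% of all tested genes, and in 1 of them, Anxa7, they lay below, as in 35.6%. The median log2 FC of the 8 members was 1.28, and that of all 13726 tested genes 0.06.

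**Figure D1:**
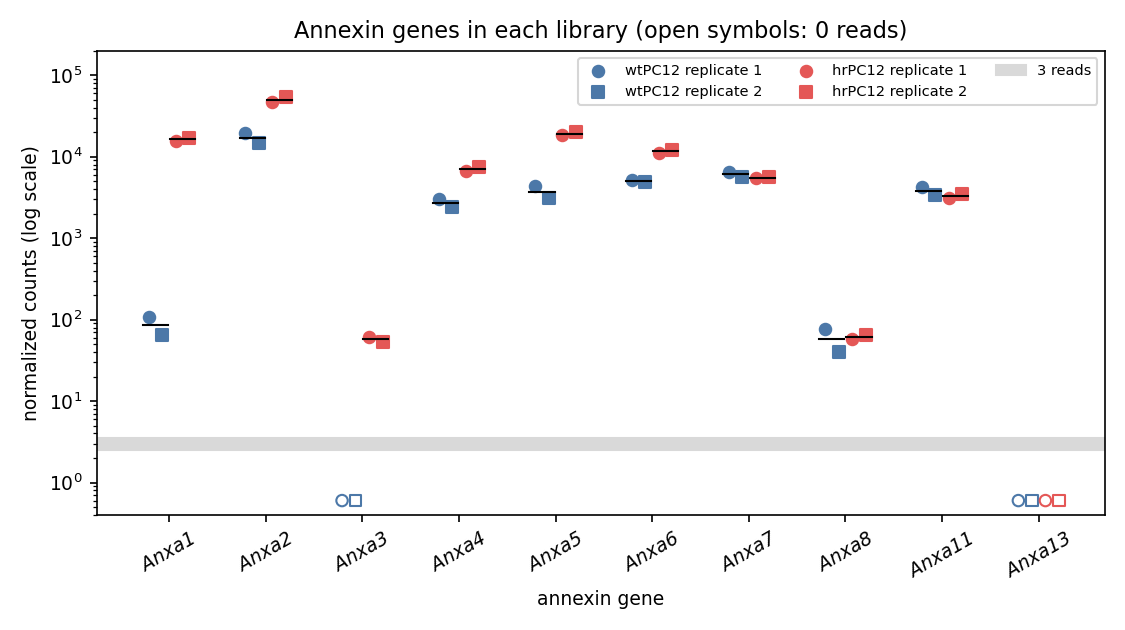
Normalized counts (log scale) of the 10 annexin genes in each library, wtPC12 in blue and hrPC12 in red, with circles for replicate 1, squares for replicate 2, black lines for the clone means and a grey band for the level of 3 reads. Of the genes read in both clones, Anxa1 sets them farthest apart, from 64.9 to 107 in wtPC12 and from 15780 to 17191 in hrPC12. Open symbols at the bottom stand for 0 reads (Anxa3 in wtPC12, Anxa13 in all libraries).

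Anxa1 had 107 and 64.9 normalized counts in the wtPC12 libraries (replicates 1 and 2, in this order throughout), and 15780 and 17191 in those of hrPC12. Its product, also called lipocortin, is known as a mediator of the anti-inflammatory action of glucocorticoids. The clone means were 86.0 ± 29.8 and 16485 ± 998 (SD, n = 2 per clone), a 192-fold difference with a 95% interval from 104-fold to 354-fold. The log2 FC of 7.59 (standard error, SE, 0.35, adjusted p = 0.000376) ranks 124 from the top among the 13726 tested genes. The spread between libraries of a clone was small against this difference, since the higher wtPC12 library held less than any hrPC12 library by more than a factor of 100. In bulk RNA, fewer cells that express a gene and less RNA of it per cell cannot be told apart.

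Anxa5, whose product binds exposed phosphatidylserine and is widely used as a stain for apoptotic cells, was the other member past both thresholds. Its normalized counts were 4359 and 3076 in the wtPC12 libraries and 18424 and 20031 in the hrPC12 libraries. Both hrPC12 libraries lay above both wtPC12 libraries, with a 5.17-fold difference (95% interval 3.38 to 7.92), a log2 FC of 2.37 (SE 0.24) and an adjusted p of 0.00265.

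Anxa2, whose product forms a complex with S100a10 at the plasma membrane, had 19575 and 14548 normalized counts in wtPC12 and 46957 and 53559 in hrPC12. It rose 2.95-fold (95% interval 1.91 to 4.54, log2 FC 1.56, SE 0.24), with an adjusted p of 0.00984. Anxa4, known from secretory and other epithelia, had 3024 and 2437 normalized counts in wtPC12 and 6701 and 7427 in hrPC12. It rose 2.59-fold (95% interval 1.85 to 3.63, log2 FC 1.37, SE 0.19, adjusted p = 0.00695). In both genes the clones did not overlap, and the difference was under the fold threshold of the study.

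Anxa6, the member with a duplicated core, had 5232 and 4928 normalized counts in wtPC12 and 11203 and 12085 in hrPC12. The clones did not overlap, and the difference of 2.29-fold (95% interval 1.71 to 3.08) gave a log2 FC of 1.20 (SE 0.17) with an adjusted p of 0.00690. The intervals of Anxa2, Anxa4 and Anxa6 overlap each other, and differences between the fold changes of members were not tested.

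Anxa3 had 0 reads in both wtPC12 libraries and 73 and 52 reads in the hrPC12 libraries, or 61.8 and 52.6 normalized counts. It is best known from neutrophils, where its product is found on granules. Because wtPC12 held no read, the filter, which asked for reads in both clones, left it out of the test. Set against the mean level of a floor of 3 reads in each wtPC12 library, the hrPC12 mean of Anxa3 was 17.4-fold higher. The lower hrPC12 library was 15.1-fold above the higher of these wtPC12 floors. When every gene with at least 1 read was tested instead, Anxa3 entered only through its reads in hrPC12. Its adjusted p of 0.000543 in edgeR there is therefore no support beyond the counts themselves.

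For Anxa7, Anxa11 and Anxa8 no change was detected, and the intervals bound how large one could be. Anxa7, also called synexin, was purified from the adrenal medulla as a protein that aggregates chromaffin granules. It had 6512 and 5689 normalized counts in wtPC12 and 5440 and 5663 in hrPC12. The lower wtPC12 library was nearly level with the higher hrPC12 library. The ratio of hrPC12 to wtPC12 was 0.910 (95% interval 0.678 to 1.22, adjusted p = 0.550). Anxa11, which has a long N-terminal tail like Anxa7, had 4255 and 3374 in wtPC12 and 3103 and 3440 in hrPC12, a ratio of 0.858 (95% interval 0.611 to 1.20, adjusted p = 0.404). The clones overlapped in Anxa11. Anxa8 was read at a low level, with 76.8 and 40.2 normalized counts in wtPC12 and 58.4 and 64.8 in hrPC12. Both hrPC12 values lay between those of wtPC12, and the ratio of 1.06 had a 95% interval from 0.482 to 2.31 (adjusted p = 0.900).

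Anxa13, a member known mainly from epithelia of the intestine and kidney, had 0 reads in all 4 libraries. A count of 0 allows up to 3 reads, equal to between 2.54 and 3.49 normalized counts in the 4 libraries. This limit is for counting error alone. The count files name 1 further annexin, Anxa10, with 1 or 2 reads in each library.

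**Figure D2:**
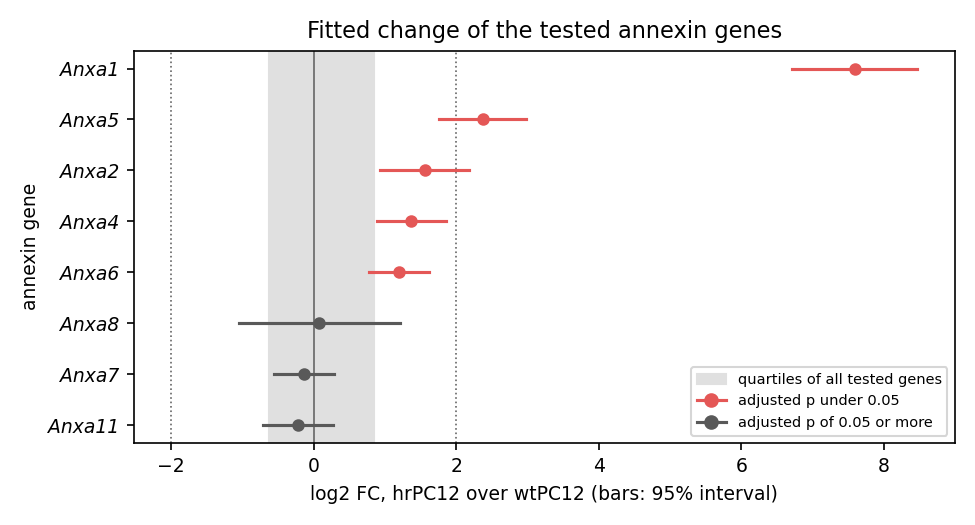
Fitted log2 FC (hrPC12 over wtPC12) of the 8 tested annexin genes with 95% intervals, red where the adjusted p is under 0.05. The grey band spans the quartiles of all tested genes, from −0.63 to 0.85, and the dotted lines mark a log2 FC of 2 in either direction. Anxa1 (7.59) stands apart from the other members, which lie between −0.22 and 2.37.

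In all 8 tested members wtPC12 replicate 1 held more normalized counts than replicate 2, and hrPC12 replicate 1 held fewer than replicate 2. Among all 12504 genes with over 3 reads in every library, 53.2% had the first pattern, 51.7% the second and 33.2% both. The log2 ratio of wtPC12 replicate 1 to replicate 2 ran from 0.09 in Anxa6 to 0.93 in Anxa8, and was 0.72 in Anxa1. Between the hrPC12 libraries it ran from −0.19 in Anxa2 to −0.06 in Anxa7. The part of this shared deviation in the results was not tested beyond leaving out each library. Each of the 5 higher members then kept an adjusted p under 0.05, with a log2 FC from 7.27 to 7.96 for Anxa1, from 2.14 to 2.61 for Anxa5, from 1.36 to 1.76 for Anxa2, from 1.22 to 1.51 for Anxa4 and from 1.10 to 1.25 for Anxa6. Without wtPC12 replicate 2 no gene of the whole table passed an adjusted p of 0.01 in edgeR, so the count of members past both thresholds was 0 there, with 5 members higher at an unadjusted p under 0.05.

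Together the annexin genes had a summed CPM (share of the reads on genes, scaled by TMM) of 1877 and 1486 in wtPC12, and 4687 and 5199 in hrPC12. The means were 1681 ± 276 and 4943 ± 363 (SD, n = 2 per clone), a ratio of 2.94, and without Anxa1 the ratio was 2.52. The gain was unevenly spread. Anxa2 accounted for a similar share of the annexin reads in both clones, 45.4% and 42.6% in wtPC12 and 43.6% and 44.8% in hrPC12. The share of Anxa1 was 0.248% and 0.190% in wtPC12 and 14.6% and 14.4% in hrPC12, and that of Anxa5 was 10.1% and 9.01% against 17.1% and 16.8%. The shares of Anxa7 (15.1% and 16.7% against 5.05% and 4.74%) and Anxa11 (9.86% and 9.88% against 2.88% and 2.88%) were smaller in hrPC12, although neither gene was shown to change in level. These shares are of reads, so that longer transcripts count for more.

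**Figure D3:**
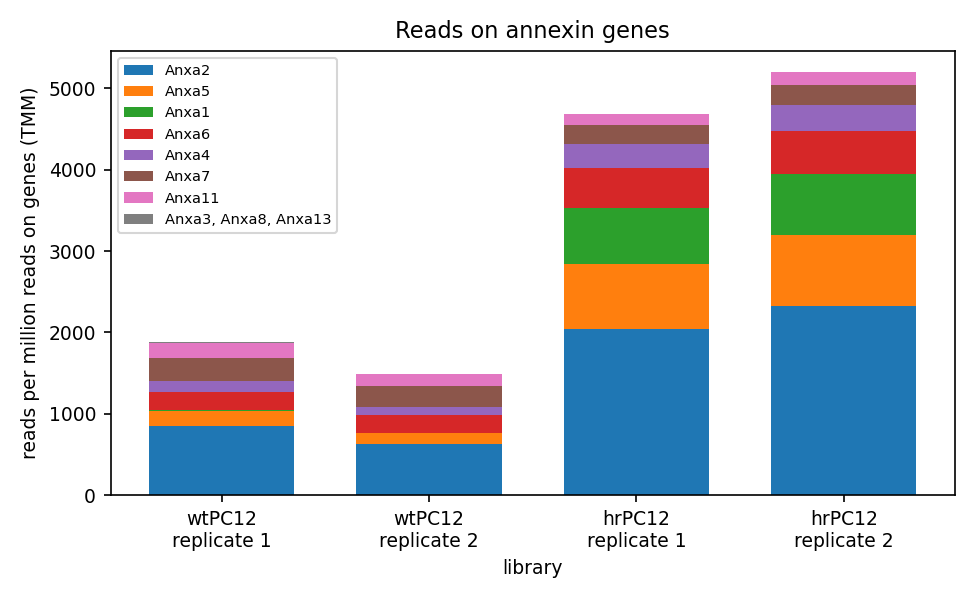
Annexin CPM (scaled by TMM) in each of the 4 libraries, stacked by gene. The bars reach 1877 and 1486 in wtPC12 and 4687 and 5199 in hrPC12, and the segment of Anxa1 holds 686 and 748 in hrPC12 and at most 4.66 in wtPC12.

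The genes of S100 proteins, the partners of annexins, changed in both directions. Of 14 listed genes 9 were tested, of which 4 were higher and 1 lower past both thresholds, and 4 were higher and 3 lower with an adjusted p under 0.05. Their median log2 FC was 0.81. Among all tested genes, 4.84% were higher and 5.46% lower past both thresholds, and 16.1% and 16.3% with an adjusted p under 0.05. The same shares stand beside the counts of the lists that follow. S100a10, the partner of Anxa2, had 3733 and 2446 normalized counts in wtPC12 and 15108 and 17196 in hrPC12. It rose 5.23-fold (log2 FC 2.39, SE 0.27, adjusted p = 0.00358), and the reads on S100a10 per read on Anxa2 were 0.191 and 0.168 in wtPC12 and 0.322 and 0.321 in hrPC12. S100a11, the partner of Anxa1, had 1 read in the 2 wtPC12 libraries together and 376 in hrPC12, a ratio of 317 with an exact 95% counting interval from 56.6 to 12600. Thus both genes of each of these pairs were higher in hrPC12. The exact counting intervals, here and below, pool the libraries of a clone. They cover counting error alone and not the spread between libraries.

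S100a4, a binding partner of non-muscle myosin, rose from 713 ± 199 to 8837 ± 575 (SD, n = 2 per clone) normalized counts, a log2 FC of 3.63 (SE 0.27). S100a16 had 2 reads in wtPC12 and 286 in hrPC12, a ratio of 121 (exact 95% counting interval 33.1 to 1000). S100a1 was the gene lower past both thresholds, from 1277 ± 432 to 269 ± 7.73 (SD, n = 2 per clone), with a log2 FC of −2.25 (SE 0.31). S100a6, a partner of Anxa11, had 12980 and 8775 normalized counts in wtPC12 and 17902 and 20265 in hrPC12. The clones did not overlap, but the log2 FC of 0.81 (SE 0.25) had an adjusted p of 0.0617. Pdcd6, a partner of Anxa7 and Anxa11, had 2513 ± 667 and 2794 ± 175 (SD, n = 2 per clone), a log2 FC of 0.15 (SE 0.24, adjusted p = 0.633).

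The complex of Anxa2 and S100a10 is known as a docking site for tissue plasminogen activator and plasminogen. Of 9 listed genes of plasminogen activation, 8 were found and 5 tested, with 1 higher and 1 lower past both thresholds and 2 higher and 1 lower with an adjusted p under 0.05 (median log2 FC 0.66). Plat, the gene of tissue plasminogen activator, fell from 8217 ± 889 to 1045 ± 33.6 (SD, n = 2 per clone) normalized counts, with a log2 FC of −2.98 (SE 0.18, adjusted p = 0.000723). Serpine2, a secreted protease inhibitor, rose from 25.1 ± 0.936 to 296 ± 32.0 (SD, n = 2 per clone), a log2 FC of 3.55 (SE 0.32). So the receptor pair was higher in the clone in which the gene of this ligand was lower. The formyl peptide receptors found by name, of the family through which Anxa1 acts on leukocytes, were nearly unread. Of 8 listed names 3 were found (Fpr1, Fpr-rs3 and Fpr-rs6), with 1 read in the 4 libraries together. The levels of the other listed receptors are not known from these counts.

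Genes of membrane repair, in which annexins cap the wound, also moved in both directions. Of 21 listed names 16 were found and 14 tested, with 4 higher and 1 lower past both thresholds, 4 of each with an adjusted p under 0.05, and a median log2 FC of 0.11. Myof (myoferlin) had 3.22 ± 1.27 normalized counts in wtPC12 (2 and 4 reads) and 4644 ± 291 in hrPC12 (SD, n = 2 per clone), a log2 FC of 10.42 (SE 0.32). Its relative Dysf (dysferlin), which acts with annexins in muscle repair, had 227 ± 28.0 and 6.93 ± 0.220 (SD, n = 2 per clone), a log2 FC of −5.01 (SE 0.39). Thus the pair of ferlin genes went in opposite directions. Cav1, the gene of caveolin-1, had 4 reads in wtPC12 and 4111 in hrPC12, a ratio of 867 (exact 95% counting interval 338 to 3180). Ptrf (cavin-1), its partner in caveolae, had a log2 FC of 3.44 (SE 0.27). Ahnak2 had a log2 FC of 5.78 (SE 0.36).

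Anxa1 was first named for its inhibition of phospholipase A2, the enzyme that releases arachidonic acid. Of 14 listed genes of this kind 9 were tested, with 1 higher and 0 lower past both thresholds, 3 higher and 2 lower with an adjusted p under 0.05, and a median log2 FC of −0.09. Pla2g4a, the cytosolic enzyme, had 2 reads in wtPC12 and 749 in hrPC12, a ratio of 316 (exact 95% counting interval 87.2 to 2610). Thus Anxa1 and Pla2g4a were both far higher in the same clone.

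**Figure D4:**
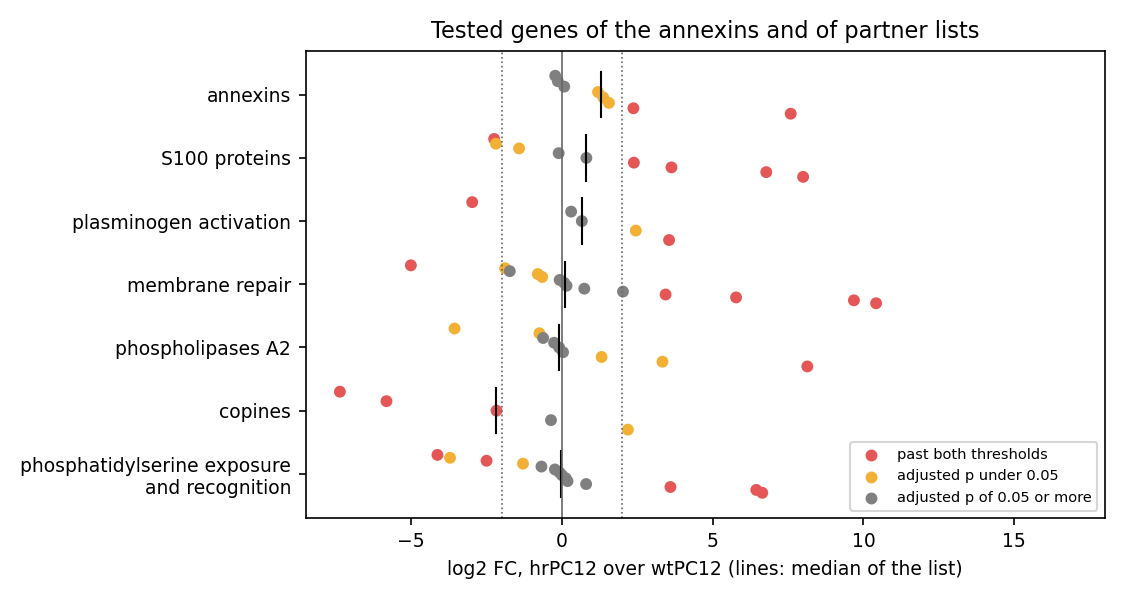
Fitted log2 FC (hrPC12 over wtPC12) of the tested genes of the annexins and 6 lists of partner genes, coloured by the thresholds passed, with a black line at the median of each list. Of these lists the annexins alone hold no gene past a threshold on the left side, and copines, with a median of −2.17, hold the most on that side past both thresholds (3 of 5).

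The genes with profiles nearest to a member were sought for the 2 members past both thresholds, by the root mean square difference of centred log2 CPM over the 4 libraries. A prior count of 2 is added before the logarithm, which shrinks the difference of genes with few reads in a clone. Nearest to Anxa1 were Fgf7 (0.0196), Flrt3 (0.0563) and Styk1 (0.0807). Fgf7 and Styk1 had a mean under 1 normalized count in wtPC12 and of 476 and 517 in hrPC12, and Flrt3 had means of 11.1 and 2616. Their fitted log2 FC was 9.46 (Fgf7), 9.58 (Styk1) and 7.88 (Flrt3), against 7.59 for Anxa1, so the nearness of Fgf7 and Styk1 depends on the prior count. Nearest to Anxa5 were S100a10 (0.0459), Car9 (0.0650) and Apol9a (0.0658), of which S100a10 is also on the list of S100 genes.

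Markers of other cell types moved with the annexins in part. Of 10 leukocyte markers 3 were tested and 1, Cd14, was higher past both thresholds, with 10.5 ± 1.67 normalized counts in wtPC12 and 379 ± 46.4 in hrPC12 (SD, n = 2 per clone). The sum of the list was 45.3 to 55.8 in wtPC12 and 436 to 519 in hrPC12. Ptprc, which defines leukocytes, had 0 reads in wtPC12 and 1 in hrPC12, Itgam had 1 and 0, and Mpo had 0 in all libraries. Under an adjusted p of 0.05, 2 of the 3 tested were higher, the other being Cd68 (26.1 ± 3.94 and 81.2 ± 8.26 normalized counts, SD, n = 2 per clone, adjusted p = 0.0283 in edgeR). Fcgr3a, not tested, had 1 read in wtPC12 and 14 in hrPC12, a ratio of 11.8 (exact 95% counting interval 1.8 to 499). Of 6 fibroblast markers 5 were tested and 3 were higher past both thresholds, and the list summed to 118 to 152 normalized counts in wtPC12 and 84263 to 88651 in hrPC12, nearly all of it Col3a1. Pdgfra of this list had a log2 FC of 0.57 (adjusted p = 0.475), and Dcn fell, with a log2 FC of −3.10. Of the endothelial list, Pecam1 had 2 reads in wtPC12 and 1 in hrPC12. Its markers summed to 29.1 to 34.0 and 61.7 to 70.3 normalized counts, with 0 of 2 tested genes past both thresholds or under an adjusted p of 0.05, and 1 of them, Tek, under an unadjusted p of 0.05. Of 4 tested epithelial markers 2 were lower past both thresholds, and under an adjusted p of 0.05 3 were lower and 1 higher. The list summed to 36020 to 46902 and 8216 to 8306, most of it Krt8 and Epcam, while Krt19 was the gene that was higher, with 3.29 and 28.1 normalized counts (log2 FC 3.05, adjusted p = 0.0122). The part of these in the levels of annexins was not tested.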

How the data were processed

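The authors made the libraries with the TruSeq RNA Sample Prep kit. They aligned the reads to the rat build rn4 (RGSC3.4) with TopHat2 2.0.4 and, per the labels, counted them with HTSeq 0.5.3. The deposited values are raw read counts of genes, 1 file per library, unscaled and unfiltered. The annotation is not given in the sources used here. The library kit does not mark strand. Reads without a unique position (5.85% to 9.13% of a library) were left out by the counting, and pseudogene copies of Anxa2 and Anxa7 are annotated in GRCr8, so the counts of these 2 genes are less certain. The 5 closing rows of each file name no gene and were left out (reads on genes were 37.9% to 41.3% of a library). The authors' table of their DESeq 1.9.12 comparison (means, fold changes and p-values) was not used. No column of other samples was found (0).

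Counts were scaled with edgeR's TMM factors (0.942, 1.01, 0.997 and 1.05). Genes whose normalized counts averaged 5 or more, and which were read in each clone, were compared with edgeR 4.0.16 (R 4.3.3) by its quasi-likelihood test (legacy option set to true), adjusted after Benjamini-Hochberg over 13726 genes. All adjusted p values in the text come from this test unless another tool is named. On simulated counts of 13616 genes, 200 of them changed by a log2 FC of 3, edgeR and DESeq2 1.42.0 each found all 200 and called 0 others. Calls had to pass both thresholds. All genes were given the same dispersion, and the changed ones were drawn only from well-read genes. This was thus an easy setting that checks little more than that the tools run correctly. Power for smaller changes was not tested, and neither was the number of wrong calls in the real libraries. Members, lists and tests were chosen with earlier results of these data known. Text names all annexins and the genes of the partner lists past both thresholds (at most 6 per list, those with the largest change). It also names S100a10, S100a11, S100a6 and Pdcd6, and the 3 genes nearest in profile to a member past both thresholds. Marker genes past both thresholds are named only in part. Markers and other genes named beside these were chosen after their values were seen. Alternatives were RLE factors, library totals, 2 other filters, DESeq2, the legacy option off, a prior count of 2, and each library left out in turn. Tested genes were placed on GRCr8 by symbol (65.2%) only to read windows of 7 placed genes centred on each member, the member included.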

Additional observations from a re-analysis of the deposited data

How the results depend on the processing

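The 5 members with an adjusted p under 0.05 kept it, and the sign of their log2 FC, in all 11 alternatives, and Anxa7, Anxa8 and Anxa11 stayed above it. The count of members past both thresholds was 2 in the main setting and from 0 to 2 with a library left out. It was 3, with Anxa3 added, when every gene with at least 1 read was tested or with edgeR's filterByExpr. Anxa3 passed both of these filters only through its reads in hrPC12, so its addition is no further support. The 0 without wtPC12 replicate 2 comes with 0 of 13590 genes under an adjusted p of 0.01 in edgeR, where 4362 were under 0.05 and 6798 under an unadjusted p of 0.05. Over all genes, 665 were higher and 749 lower past both thresholds, and 1127 and 977 with every gene tested. The number of genes past both thresholds in the partner lists was 21, and from 0 to 23 with a library left out, 0 being again without wtPC12 replicate 2 (39 under an unadjusted p of 0.05), and 25 with DESeq2 and with every gene tested. The log2 FC of Anxa8, from −0.32 to 0.58 with a library left out, changed sign to −0.32 without wtPC12 replicate 2 and −0.04 without hrPC12 replicate 2, and that of Pdcd6, from −0.10 to 0.42, to −0.10 without wtPC12 replicate 2, none with an adjusted p under 0.05. S100a6 passed an adjusted p of 0.05 with library totals, with every gene tested, with DESeq2 and without wtPC12 replicate 1. The cause was not tested. With 1 library left in a clone, it is assumed to vary like the other clone. No paired analysis was possible because the labels of the clones share fewer than 2 replicate marks. For Anxa3 in wtPC12 and Anxa13, depth limits what a count of 0 allows.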

Other observations

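Copines are another family whose products bind phospholipids when calcium is present. Of 9 listed genes 7 were found and 5 tested, with 0 higher and 3 lower in hrPC12 past both thresholds, and a median log2 FC of −2.17. Among all tested genes, 4.84% were higher and 5.46% lower past both thresholds. Cpne7 fell from 1319 ± 16.7 to 293 ± 27.7 (SD, n = 2 per clone) normalized counts. Cpne9 had a log2 FC of −5.82 (SE 0.85, 95% interval −8.00 to −3.64). It had only 4 and 0 reads in the hrPC12 libraries, near the floor of 3 reads, so the size of its fall is uncertain. Cpne5 had 452 reads in wtPC12 and 3 in hrPC12, a ratio of 179 (exact 95% counting interval 60.7 to 869). Cpne3 was the gene higher under an adjusted p of 0.05 in edgeR (0.0140), at a log2 FC of 2.19.

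Of 14 tested genes of phosphatidylserine exposure and recognition, the lipid that Anxa5 binds, 3 were higher and 2 lower past both thresholds, the median log2 FC being −0.04. The scramblase gene Ano6 fell from 12663 ± 2220 to 2240 ± 113 (SD, n = 2 per clone) normalized counts, while Plscr4 had a log2 FC of 3.60. Mfge8, a bridging protein for engulfment, rose from 75.4 ± 25.0 to 7520 ± 540 (SD, n = 2 per clone). The ligand gene Gas6 had a log2 FC of −4.13 (SE 0.31), and its receptor gene Axl had 3 reads in wtPC12 and 330 in hrPC12, a ratio of 92.8 (exact 95% counting interval 31.5 to 452). Windows of 7 placed genes were centred on each of the 8 tested annexins, the member included. Over these windows, the median log2 ratio of hrPC12 replicate 1 to replicate 2 was from −0.11 to 0.03. The lowest median, −0.109 in the window of Anxa6, equals the value of Anxa6 itself and so does not describe its neighbours. Windows elsewhere in the genome were not read for comparison.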
